A study of Mus musculus with 8 samples.

Results

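Hedgehog signalling was examined through the transcripts of 9 genes of its receiving side, out of 31053 gene identifiers counted per library in retinal pigment epithelium (RPE) eyecups. The genes were taken by name as cilium-dependent members and targets of the pathway, by a rule that uses no measured value. They comprised the membrane proteins Ptch1, Boc and Smo, the restraining factors Gpr161 and Sufu, the transcription factors Gli1, Gli2 and Gli3, and the secreted-ligand antagonist Hhip. All 9 had a row in every file and all 9 passed the filter on low counts, so none was lost.

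RNA came from mice of strain C57/Bl6 at postnatal day 11 (P11) that received no treatment. The 8 libraries fell into 4 from wild-type littermate controls (Bbs8+/+) and 4 from mice lacking Bbs8 (Bbs8-/-), whose gene symbol is Ttc8 and whose product is a subunit of the BBSome, a complex that moves membrane proteins in and out of cilia. The mutation is not targeted to 1 cell type, and the genotype of an eyecup therefore applies to all the cells in it. Eyecups were what remained after cornea, lens, neural retina and optic nerve were removed, and therefore held RPE together with choroid and sclera. Marker transcripts of lens fibres, photoreceptors and muscle were counted in them as well. QuantSeq reads only the 3′ end of each polyadenylated transcript, so counts were not taken to grow with transcript length. Levels are given as CPM, a gene's count relative to the scaled total of its library, with no division by gene length.

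In vertebrates the hedgehog signal is relayed at the primary cilium. Ligand binds PTCH1 and its co-receptors, PTCH1 then leaves the cilium and SMO enters it, and GLI proteins change from repressors to activators. GPR161 and SUFU hold the GLI proteins in check when ligand is absent, and Gli1, Ptch1 and Hhip are themselves switched on by GLI and serve as common transcript readouts of the pathway. In the developing eye, Indian hedgehog is known to come from the RPE and nearby vessels and to act on the surrounding mesenchyme that forms choroid and sclera.

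Ptch1 and Hhip are shown by sequence because both are classical GLI targets. The 250 bases before each RefSeq start site (GRCm38.p6) are given 5′ to 3′ on the gene's strand, with GC boxes (GGGCGG or its reverse complement CCGCCC) in capitals. Ptch1 is the window chr13:63565736-63565985 on the minus strand and Hhip is chr8:80058009-80058258 on the minus strand. The Ptch1 window lies inside the annotated gene (chr13:63508328-63573598), and the bases before the outermost annotated start were not examined.
Ptch1: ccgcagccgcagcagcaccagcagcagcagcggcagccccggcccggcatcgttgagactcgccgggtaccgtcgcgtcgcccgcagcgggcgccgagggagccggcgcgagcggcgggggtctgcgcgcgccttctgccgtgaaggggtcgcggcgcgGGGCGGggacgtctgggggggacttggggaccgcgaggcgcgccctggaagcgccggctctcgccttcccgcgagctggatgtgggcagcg
Hhip: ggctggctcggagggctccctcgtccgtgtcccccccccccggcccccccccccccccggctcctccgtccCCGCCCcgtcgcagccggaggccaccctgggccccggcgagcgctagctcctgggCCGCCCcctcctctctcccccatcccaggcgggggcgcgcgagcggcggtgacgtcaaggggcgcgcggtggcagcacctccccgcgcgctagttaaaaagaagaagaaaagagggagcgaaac
The Ptch1 window held 1 GC box and the Hhip window held 2. Among the 9 genes, 7 had a RefSeq window, giving 8 windows with both starts of Gpr161, and 5 of the 8 held a GC box against 32.7% of 32851 windows of all genes. The GLI consensus GACCACCCA, searched with its reverse complement TGGGTGGTC, was in 0 of the 8 windows and in 0.225% of all windows. The absence of these letters from 250 bases says nothing about binding elsewhere.

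The targeted gene was examined first. Ttc8 (chr12:98920574-98983238, plus strand) stood at 14.7 to 21.7 CPM in Bbs8+/+ and at 2.3 to 9.72 CPM in Bbs8-/-, without overlap. Its log2 fold change was -1.95 with a 95% interval from -2.58 to -1.33, which is 0.167- to 0.399-fold (edgeR quasi-likelihood FDR 2.75e-06). The labels do not give which exons are missing. The totals of counts in genes were 2159295 to 2884983 in Bbs8+/+ and 1636725 to 2179761 in Bbs8-/-. The share of uniquely aligned reads outside annotated genes separated the genotypes, at 42.15% to 43.41% and 44.14% to 44.39%. The part of that share in the values of the hedgehog genes was not tested. A total of 3 counts, the floor used for a gene at 0, equals 1.04 to 1.83 CPM.

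None of the 9 hedgehog genes passed FDR 0.05 in either direction, and none had an unadjusted p under 0.05 in the edgeR quasi-likelihood test, nor in the DESeq2 Wald test. Against this, 2.24% of the 13813 genes tested passed FDR 0.05 (1.1% higher and 1.14% lower in Bbs8-/-) and 13.0% had an unadjusted p under 0.05. The estimates were higher in Bbs8-/- for 3 genes (Gli1, Gli2 and Smo) and lower for 6, with a median log2 fold change of -0.117 beside -0.0041 over all genes tested. The smallest edgeR FDR among the 9 was 0.496, for Gli1. A missed threshold does not show that the genotypes were alike, so the interval of each difference is given with it.

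**Figure D1:**
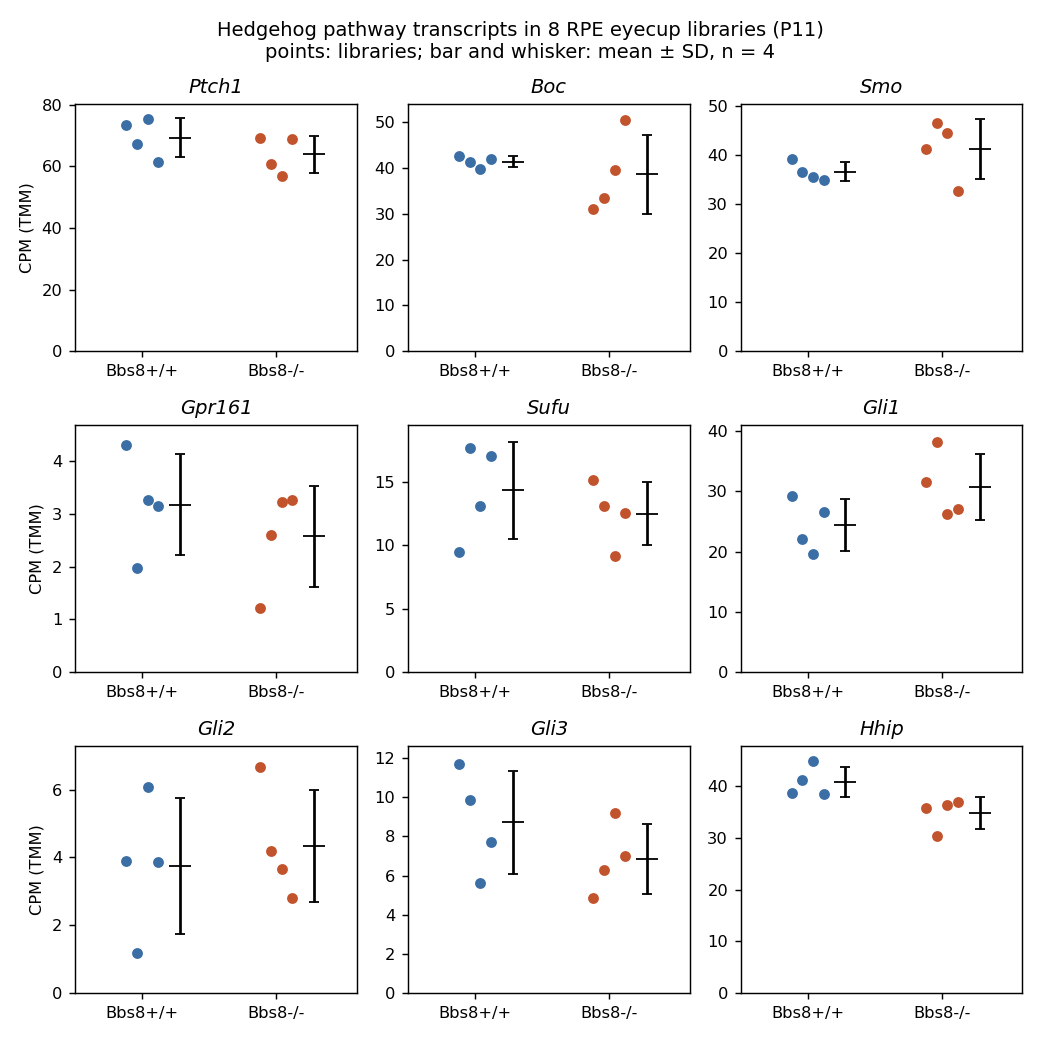
Level of each of the 9 hedgehog genes in CPM (TMM-scaled, linear axis from 0) in the 4 Bbs8+/+ (blue) and 4 Bbs8-/- (red) libraries, with a bar for the mean and whiskers for the SD. The 2 genotypes overlap for every gene except Hhip, whose 4 Bbs8-/- libraries sit between 30.3 and 36.9 CPM and whose Bbs8+/+ libraries sit between 38.5 and 44.9 CPM.

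Ptch1 (chr13:63508328-63573598, minus strand), the ligand receptor that holds SMO inactive, was the most abundant of the 9. Its levels were 73.4, 67.3, 75.3 and 61.5 CPM in Bbs8+/+ replicates 1 to 4 and 69.2, 60.7, 57.0 and 68.8 CPM in Bbs8-/- replicates 1 to 4. The groups overlapped, with Bbs8-/- replicates 1 and 4 inside the Bbs8+/+ range and replicates 2 and 3 below it. Mean and SD (n = 4 per genotype, here and for all genes) were 69.4 ± 6.24 and 63.9 ± 6.08 CPM. The log2 fold change was -0.12 with an interval from -0.36 to 0.13, or 0.777- to 1.09-fold (edgeR FDR 0.776).

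Boc (chr16:44485049-44558897, minus strand) encodes a co-receptor that binds ligand together with PTCH1. It stood at 42.7, 41.3, 39.8 and 42.0 CPM in Bbs8+/+ and at 31.0, 33.5, 39.5 and 50.5 CPM in Bbs8-/-. The Bbs8+/+ libraries were close together and the Bbs8-/- libraries spread on both sides of them, with an SD of 1.26 against 8.7 CPM. That difference in spread was not tested. The log2 fold change was -0.09, with an interval of 0.756- to 1.17-fold (edgeR FDR 0.879).

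Smo (chr6:29735503-29761365, plus strand) encodes the transducer that passes the signal from PTCH1 to the GLI proteins. Levels were 39.3, 36.6, 35.6 and 35.0 CPM in Bbs8+/+ and 41.3, 46.5, 44.6 and 32.7 CPM in Bbs8-/-. Replicates 1 to 3 of Bbs8-/- were above every Bbs8+/+ library and replicate 4 was below every one, so the groups overlapped. The log2 fold change was 0.17 and its interval ran from 0.905- to 1.4-fold (edgeR FDR 0.728).

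Of the restraining factors, Gpr161 (chr1:165295789-165326745, plus strand) encodes a ciliary receptor that raises cAMP and favours GLI repressor. It was the scarcest of the 9, with 10, 5, 7 and 9 counts in Bbs8+/+ and 2, 5, 7 and 7 counts in Bbs8-/-, or 3.18 ± 0.96 and 2.58 ± 0.957 CPM. Values near the floor overlapped, and the log2 fold change of -0.26 had an interval from 0.366- to 1.9-fold (edgeR FDR 0.915). A 2-fold fall in Gpr161 lay inside that interval and a 2-fold rise outside it.

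Sufu (chr19:46396896-46488804, plus strand) encodes the cytoplasmic partner that keeps GLI proteins inactive. Its values were 9.49, 17.7, 13.1 and 17.1 CPM in Bbs8+/+ and 15.2, 13.1, 9.19 and 12.6 CPM in Bbs8-/-. The lowest library of each genotype was close to the other's lowest, and Bbs8+/+ replicates 2 and 4 were above every Bbs8-/- library, while the groups overlapped below them. The log2 fold change was -0.22 with an interval from 0.594- to 1.24-fold (edgeR FDR 0.813).

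Gli1 (chr10:127329882-127341974, minus strand) encodes the GLI activator whose own transcription depends on the pathway. It was at 29.3, 22.1, 19.6 and 26.6 CPM in Bbs8+/+ and at 31.6, 38.2, 26.2 and 27.1 CPM in Bbs8-/-. Replicates 1 and 2 of Bbs8-/- were above all Bbs8+/+ libraries, while the other Bbs8-/- libraries lay inside the Bbs8+/+ range. With means of 24.4 ± 4.37 and 30.8 ± 5.47 CPM and a log2 fold change of 0.32, the interval ran from -0.06 to 0.70, or 0.962- to 1.63-fold (edgeR FDR 0.496). The last exon of Gli1 shares 62 bases with the last exon of Arhgap9 on the opposite strand, and the strand setting of the counting is not given in the sources used here. Arhgap9 had 8 to 16 counts per library and a log2 fold change of -0.06 (edgeR FDR 0.977), and the antisense transcript Gm47200 had 0 counts in all 8 libraries.

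Gli2 (chr1:118834132-119053619, minus strand) encodes the main activator that acts before Gli1 is induced. Its counts were 9, 3, 13 and 11 in Bbs8+/+ and 11, 8, 8 and 6 in Bbs8-/-, or 3.75 ± 2.01 and 4.34 ± 1.66 CPM. The groups overlapped, and the log2 fold change of 0.20 (edgeR FDR 0.927), with an interval from 0.561- to 2.36-fold, turned to -0.096 without Bbs8+/+ replicate 2 and to -0.057 without Bbs8-/- replicate 1. No direction can be given for Gli2.

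Gli3 (chr13:15463235-15730026, plus strand) encodes the main GLI repressor. It was at 11.7, 9.84, 5.61 and 7.69 CPM in Bbs8+/+ and 4.86, 6.28, 9.19 and 7.02 CPM in Bbs8-/-. All but the lowest Bbs8-/- library lay inside the Bbs8+/+ range, and the log2 fold change of -0.33 had an interval of 0.491- to 1.29-fold (edgeR FDR 0.775). As a share of the counts of the 3 Gli genes together, Gli1 took 62.7% to 69.7% in Bbs8+/+ and 67.1% to 78.5% in Bbs8-/-, overlapping ranges that are given as a description.

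Hhip (chr8:79965851-80058006, minus strand) encodes a membrane-bound and secreted protein that captures hedgehog ligand and is induced by the pathway. It was at 38.8, 41.3, 44.9 and 38.5 CPM in Bbs8+/+ and at 35.8, 30.3, 36.3 and 36.9 CPM in Bbs8-/-. Every Bbs8-/- library was below every Bbs8+/+ library, the only one of the 9 genes for which the groups did not overlap, a pattern that 7.38% of all tested genes showed. Means were 40.9 ± 2.97 and 34.9 ± 3.05 CPM, and the log2 difference was -0.23 with an interval from -0.54 to 0.09, or 0.686- to 1.07-fold (edgeR FDR 0.601). The transcript therefore did not pass the test despite the separation.

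**Figure D2:**
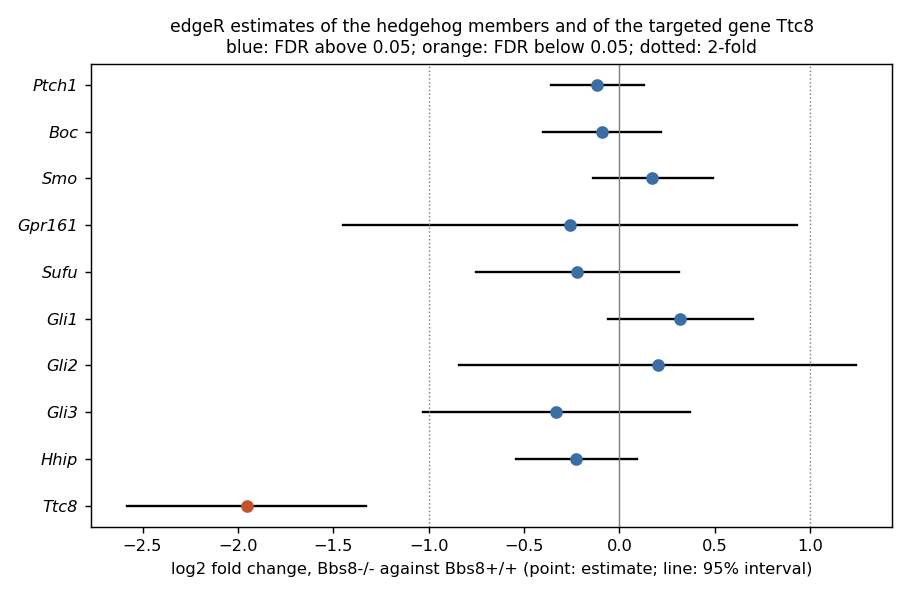
Log2 fold change of each of the 9 hedgehog genes (blue) and of the targeted gene Ttc8 (orange) in Bbs8-/- against Bbs8+/+ with its 95% interval from the edgeR fit (points and lines), on an axis in log2 units with dotted lines at 2-fold. Each of the 9 hedgehog intervals crosses 0 while that of Ttc8 lies from -2.58 to -1.33, and the intervals of Gpr161, Gli2 and Gli3 reach past a 2-fold change.

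Among the common targets of the pathway, Gli1 had the highest estimate of the 9 while Hhip and Ptch1 had estimates below 0. None of the 3 passed the test, their intervals overlapped around 0, and differences between the 3 genes were not tested. Within a library, the ratio of Gli1 to Ptch1 counts was 0.355 ± 0.0765 for wild-type mice and 0.485 ± 0.101 for mutants, and Hhip counts were 0.591 ± 0.043 and 0.548 ± 0.0612 of Ptch1 counts. These ratios overlapped between genotypes and were not tested.

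On the CPM scale over all 8 libraries, mean levels ran from Ptch1 (66.6) through Boc (40.0), Smo (38.9), Hhip (37.9), Gli1 (27.6), Sufu (13.4), Gli3 (7.77) and Gli2 (4.04) to Gpr161 (2.88). Ranges over libraries were separate between Ptch1 and Boc and between Gli1 and Sufu, and all other neighbours in that order overlapped. Among the overlapping genes the order of the means differed by genotype: Boc, Hhip and Smo (41.4, 40.9 and 36.6 CPM) in Bbs8+/+, and Smo, Boc and Hhip (41.3, 38.6 and 34.9 CPM) in Bbs8-/-. Precision followed depth: the intervals of 6 of the 9 (66.7%) lay wholly within a 2-fold change in either direction, against 68.7% of all genes tested. Those 6 were Ptch1, Boc, Smo, Sufu, Gli1 and Hhip, so for them a change of 2-fold or more was outside the 95% interval. The other 3 were the least abundant.

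**Figure D3:**
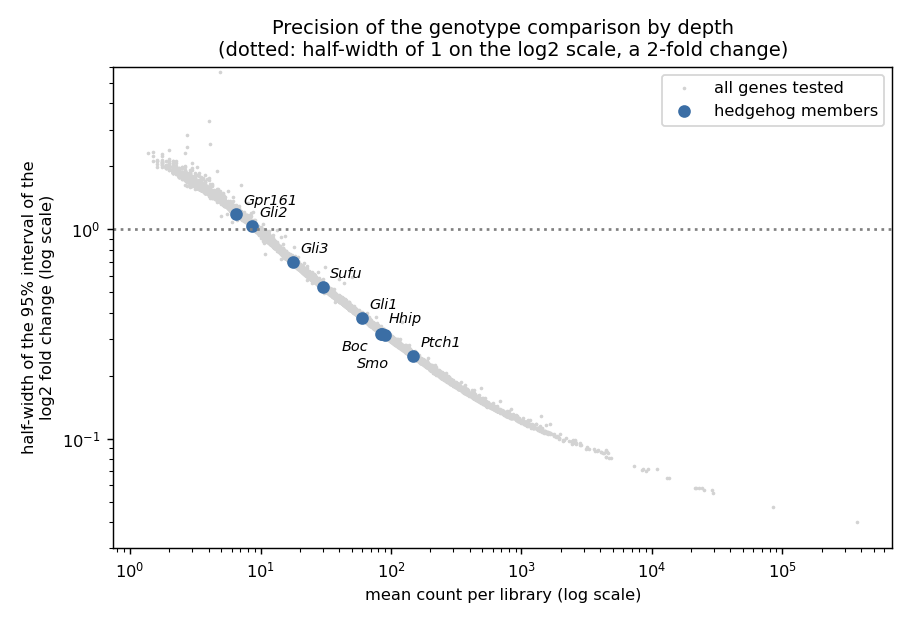
Interval half-width of the log2 fold change against mean count per library (both axes log scale) for all tested genes (grey) and the 9 hedgehog genes (blue), with the dotted line at 1 on the log2 scale. Gpr161, with a mean of 6.5 counts, and Gli2, with 8.62, lie above the line, and Ptch1, with 147 counts per library, lies well below it.

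The other genes of the pathway were read in the same fit. Of 48 listed, 44 were tested, and Shh, Disp2, Foxf1 and Mycn were too scarce. None of the 44 passed FDR 0.05 in edgeR or in DESeq2, with the smallest edgeR FDR at 0.149. In either tool 4 of the 44 had an unadjusted p under 0.05, beside 13.0% of all genes, and in edgeR all 4 estimates were lower in Bbs8-/-. Estimates were higher for 16 and lower for 28 of the 44, with a median log2 fold change of -0.09.

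The ligands were scarce in these eyecups. Shh had 0 counts in all 8 libraries. Taken 1 library at a time, this allows up to 1.04 to 1.83 CPM depending on the library, and the 8 libraries together allow less. Ihh, the ligand of the RPE and choroid, was at 4.32, 3.15, 1.87 and 5.24 CPM in Bbs8+/+ and 2.43, 3.14, 0.919 and 5.14 CPM in Bbs8-/-, and the groups overlapped. Dhh, the ligand of peripheral nerve sheath and gonad, was at 4.73 to 5.61 CPM in Bbs8+/+ and at 1.4 to 5.75 CPM in Bbs8-/-. The log2 fold changes were -0.34 for Ihh (interval -1.46 to 0.79, edgeR FDR 0.876) and -0.48 for Dhh (interval -1.45 to 0.5, edgeR FDR 0.767), and both intervals reached past a 2-fold fall. Single libraries moved both values: Ihh was at -0.024 without Bbs8-/- replicate 3 and -0.78 without replicate 4, and Dhh at -0.78 without Bbs8-/- replicate 2 and -0.19 without replicate 4.

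All 4 co-receptors and receptor paralogs listed had estimates below 0. Gas1, a membrane-anchored co-receptor that promotes ligand binding, was at 155.8, 127.2, 135.2 and 123.4 CPM in Bbs8+/+ and 109.3, 113.0, 111.6 and 115.5 CPM in Bbs8-/-. Every Bbs8-/- library was below every Bbs8+/+ library. The log2 fold change was -0.27 with an interval from -0.45 to -0.08 (edgeR unadjusted p = 0.0062, edgeR FDR 0.149).

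Cdon, a co-receptor related to Boc, was at 21.1, 25.2, 22.5 and 33.9 CPM in Bbs8+/+ and 16.4, 16.7, 18.4 and 18.2 CPM in Bbs8-/-. These groups did not overlap either. Its log2 fold change was -0.56 with an interval from -0.99 to -0.14 (edgeR unadjusted p = 0.00921, edgeR FDR 0.181). Without Bbs8+/+ replicate 4, the highest library, the Cdon value was -0.39 (edgeR FDR 0.528). Evc2, part of the ciliary complex that relays SMO activity, was at 16.1 to 21.3 CPM in Bbs8+/+ and 8.42 to 17.0 CPM in Bbs8-/-. Its groups overlapped through Bbs8-/- replicate 3, and its log2 fold change was -0.63 (edgeR unadjusted p = 0.0143, edgeR FDR 0.224).

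Gas1, Cdon and Evc2 were named as the 3 lowest p-values of the list. Scube1, which helps to release ligand, was the other with an unadjusted p under 0.05 and is named after its values were seen. Scube1 levels averaged 22.2 ± 1.81 and 15.9 ± 2.18 CPM in the respective genotypes, with a log2 fold change of -0.48 (edgeR FDR 0.343). Groups did not overlap for 6 of the 44, beside 7.38% of all genes tested. Besides Gas1, Cdon and Scube1 these were Arrb2, Gsk3b and Foxf2, with log2 fold changes of -0.32, 0.09 and -0.65.

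By role, the median log2 fold change was -0.414 for the 4 co-receptors and receptor paralogs and -0.407 for the 2 ligands tested. It was 0.01 for the 5 ligand-release genes, 0.058 for the 10 genes of the SMO module, -0.067 for the 17 genes of GLI phosphorylation and turnover and -0.08 for the 6 further targets. The 17 included the kinases and ubiquitin ligases that process GLI proteins, of which 5 had estimates above 0 and 12 below, and no gene of that group had an unadjusted p under 0.05.

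**Figure D4:**
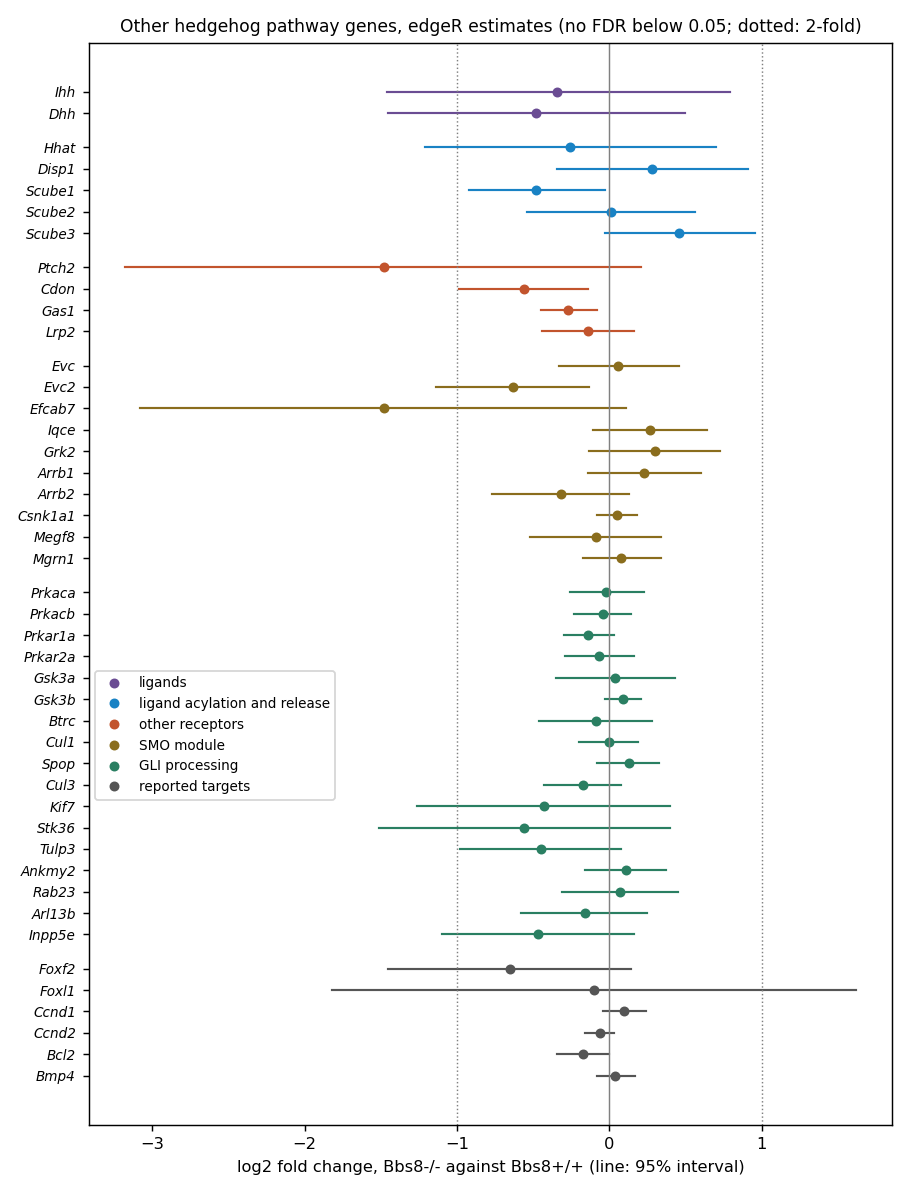
Log2 fold change in Bbs8-/- against Bbs8+/+ with its 95% interval for the 44 other pathway genes tested, coloured by role, on an axis in log2 units with dotted lines at 2-fold. Of the 44, 33 (75.0%) have intervals within 2-fold, and the intervals of Gas1, Cdon, Evc2 and Scube1 lie below 0.

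Summed markers of other cell types of the eyecup differed between genotypes, except those of endothelium. In sums from bulk tissue, fewer cells of a type, less RNA per cell and changes in a few abundant marker genes cannot be told apart. The summed level of 10 fibroblast and scleral markers was 35251 to 37058 CPM in Bbs8+/+ and 27811 to 29005 CPM in Bbs8-/-, with 3 of the 10 lower at FDR 0.05 in edgeR. That sum was led by Col1a2, with a mean of 12716 CPM, and the median log2 fold change of the 10 was -0.186, with 3 estimates above 0, of which 1 had an unadjusted p under 0.05. The 6 melanocyte markers summed to 10981 to 11263 and 9054 to 9456 CPM (3 of 6 lower). The 7 Schwann cell markers summed to 627.9 to 707.3 and 472.4 to 525.9 CPM (4 of 7 lower). The 8 pericyte markers summed to 1296 to 1338 and 1130 to 1216 CPM (2 of 8 lower, with 2 estimates above 0). The melanocyte sum rested mainly on Dct, with a mean of 9557 CPM, a pigment gene that the RPE also expresses, and the median log2 fold change of the 6 was -0.152 with 1 of them above 0. The part of these cells in the values of Gas1, Cdon, Hhip and the other genes was not tested.

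The RPE itself was well represented. Its 10 markers summed to 17351 to 18400.0 CPM in Bbs8+/+ and 18515 to 18918 CPM in Bbs8-/-, and 0 of the 10 passed FDR 0.05 in edgeR, although 5 had an unadjusted p under 0.05, of which 3 were higher and 2 lower in Bbs8-/-. The RPE sum was led by Ttr, with a mean of 11316 CPM, and the log2 fold changes of the 10 ran from -0.28 to 1.57. The summed lens fibre markers were at 50.8 to 66.0 CPM in Bbs8+/+ and higher, at 339.9 to 381.2 CPM, in Bbs8-/- (5 of 10 higher). Photoreceptor markers were at 464.8 to 516.0 and 354.5 to 427.6 CPM (2 of 10 lower). Of these 10, 3 estimates were above 0, 2 of them at an unadjusted p under 0.05. Muscle markers were at 2858 to 3071 and 3172 to 3440 CPM (2 of 10 higher, with 3 estimates below 0). The sums of all 8 of these lists were without overlap (exact permutation p = 0.0286 each, the smallest that 4 against 4 libraries allow, Benjamini-Hochberg 0.0322 over 9 lists). Endothelial markers overlapped (910.5 to 963.2 and 925.1 to 1017 CPM, exact permutation p = 0.2), with 1 of 10 higher at FDR 0.05 in edgeR. Of these 10, 5 estimates were above 0 and 5 below, with 2 of the lower ones at an unadjusted p under 0.05. No marker was at 0 in all libraries.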

How the data were processed

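QuantSeq 3′ mRNA libraries were made from P11 RPE eyecups of 4 Bbs8+/+ and 4 Bbs8-/- mice, each a separate animal according to the study's methods. Each deposited file lists unnormalized counts for 1 library, from reads with a single alignment, which the authors made with STAR on mm10 per the submitters' processing notes and a gene counter whose strand setting is not given in the sources used here. Summary lines for reads outside genes (42.15% to 43.41% of uniquely aligned reads in Bbs8+/+ and 44.14% to 44.39% in Bbs8-/-) were kept out of totals. Molecular identifiers are not mentioned in the sources used here, and floors of 3 counts cover counting error only, while the 95% intervals come from the fit and include the spread between libraries. No 2 files held identical values.

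Of 31053 identifiers, 30934 had a symbol in the GENCODE M21 annotation, which also gave the mm10 positions. The 13813 genes that reached 1 CPM in 4 or more libraries entered the edgeR (4.0.16, R 4.3.3) quasi-likelihood F test after TMM scaling, with genotype as the only factor, two-sided, at a Benjamini-Hochberg FDR of 0.05 over all genes tested. The standard error was the size of the log2 fold change divided by the square root of F. The 95% intervals used the t quantile at the fit's total degrees of freedom. These add degrees of freedom borrowed across all genes to the residual ones of each gene. DESeq2 1.42.0 was an alternative, with other normalizations and filters, a replicate block and each library left out in turn. The script was tested on simulated counts.

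The hedgehog genes were listed by their place in the pathway, but they and all lists were chosen with earlier results of these data known. Named were the 9 genes, Ttc8, the 3 ligands, the 3 other pathway genes with the lowest p and, for each of the 9 with at least 20 CPM, the 2 genes most correlated with it. Further genes were named because of their values, among them Scube1, Arrb2, Gsk3b, Foxf2, Ankmy2 and the leading markers Col1a2, Dct and Ttr. Promoter windows came from RefSeq on GRCm38.p6. Titles share replicate numbers, but same-numbered libraries did not deviate together.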

Additional observations from a re-analysis of the deposited data

Results flagged for a closer look

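Among the 126 groups of 4 libraries examined for a library far from the others, 2 were found, where chance gives about 6.3. Hhip in Bbs8-/- replicate 2 was at 30.3 CPM, apart from the 35.8 to 36.9 CPM of the other Bbs8-/- libraries. Ankmy2, a gene of ciliary GLI control, was at 63.8 CPM in Bbs8-/- replicate 1, apart from 56.0 to 57.0 CPM in the others.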

How the results depend on the processing

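Over 15 alternatives, the 9 hedgehog genes gave 133 log2 fold changes, of which 131 kept their direction and 0 passed FDR 0.05 (edgeR or DESeq2 FDR 0.395 to 0.997). The 2 that reversed were both for Gli2, at -0.096 without Bbs8+/+ replicate 2 and at -0.057 without Bbs8-/- replicate 1. With each library left out in turn, Gli2 ran from -0.096 to 0.51. The cause was not tested. Sizes also moved with single libraries: Boc ran from -0.25 (without Bbs8-/- replicate 4) to -0.0019 (without Bbs8-/- replicate 1), Gpr161 from -0.43 (without Bbs8+/+ replicate 2) to -0.049 (without Bbs8-/- replicate 1), Sufu from -0.37 (without Bbs8+/+ replicate 1) to -0.092 (without Bbs8-/- replicate 3) and Gli3 from -0.51 (without Bbs8-/- replicate 3) to -0.16 (without Bbs8+/+ replicate 1). Gli1 ran from 0.20 to 0.42, Smo from 0.11 to 0.27, Ptch1 from -0.17 to -0.062 and Hhip from -0.26 to -0.16. The median over the 9 ran from -0.229 (without Bbs8-/- replicate 4) to -0.057 (without Bbs8-/- replicate 1) when each library was left out in turn, against -0.117 with all. The other pathway genes gave 0 calls under every alternative. Gas1 stayed at -0.31 to -0.19, with edgeR or DESeq2 FDR from 0.1 to 0.464, the highest without Bbs8+/+ replicate 1. Cdon ran from -0.64 to -0.39, Evc2 from -0.88 to -0.5 and Scube1 from -0.54 to -0.4. With filterByExpr, Gli2, Gpr161 and Ihh were not tested.

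Replicate numbers did not pair the libraries: the deviations of same-numbered libraries from their group means had correlations of 0.019, 0.003, -0.05 and -0.056 over 6628 genes. With the replicate block the median over the 9 was -0.115 and 0 of them passed FDR 0.05, while over all genes 134 were higher and 129 lower, against 152 and 157 without it. DESeq2 called 130 higher and 118 lower, and leaving out single libraries gave 114 to 172 higher and 105 to 150 lower. The intervals of Gpr161, Gli2, Gli3, Ihh and Dhh, with mean counts of 6.5, 8.62, 17.6, 7.5 and 9.75 per library, reach past 2-fold.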

Other observations

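The genes whose log2 CPM over the 8 libraries most resembled each of the 5 better counted hedgehog genes were listed as a description, from 6628 genes with a mean of at least 20 CPM. For Gli1 these were Mtus1 (Pearson r = 0.952) and Cdc37l1 (0.948). For Ptch1 they were Sptbn1 (0.963) and Ercc5 (0.961), for Smo Bag4 (0.912) and Tcf20 (0.91), for Boc Samd5 (0.984) and Brd3 (0.931), and for Hhip Smg1 (0.936) and Cops2 (0.928). None of these 10 passed FDR 0.05 in edgeR. All points share the same 8 libraries and their depth and cell mixture. A search of 6628 genes over 8 libraries gives high correlations by chance alone, and none of these was tested.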
